A study of Mus musculus with 4 samples.

Results

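The translation initiation and elongation factors are the proteins that load the ribosome onto messenger RNA, find the start codon and move the ribosome along the reading frame. Their genes were taken as the protein-coding mouse genes whose symbol starts with Eif or Eef followed by a digit. The 4 Eif2ak kinase genes and 1 gene copy on the Y chromosome were left out. This gave 62 genes of the 47885 rows in the count table. They were measured in RNA from 4 whole embryos, sequenced singly, of strain C57BL/6 at embryonic day 5.5. At that age the implanted mouse conceptus is a small cup in which visceral endoderm surrounds the epiblast and the extraembryonic ectoderm. The WT group (2 embryos) is labelled Mettl14+/+ and the KO group (2 embryos) Mettl14-/-. Mettl14 encodes the RNA-binding partner of METTL3, and the pair methylates messenger RNA to N6-methyladenosine (m6A), and the study asked what its loss does to the embryo before mutants differ in shape. Genotype was called by qPCR for Mettl14 on the amplified cDNA of each sequenced embryo, so controls were chosen by expression of the gene. Which part of the gene was deleted is not given in the labels.

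Levels are given as CPM, counts relative to the scaled library size. Mettl14 was at 34.0 and 31.6 CPM in WT and at 4.63 and 8.04 CPM in KO, without overlap (log2 fold change -2.37, edgeR adjusted p = 0.274, DESeq2 adjusted p = 0.000385). Genotype was called from Mettl14 in the same cDNA, so the grouping itself set this separation and the p-values are no independent test. Libraries held 16108062 to 28698541 counts. All 9 epiblast, 8 extraembryonic ectoderm and 9 visceral endoderm markers had counts. Summed levels of some cell type markers differed between the groups and those of others overlapped. The epiblast markers summed to 2497 and 2328 CPM in WT and to 1801 and 2795 CPM in KO. That overlap joined single markers that went opposite ways. Both KO embryos lay below both WT embryos for Sox3, Otx2 and Dnmt3b (33.3%, background 18.8% of all genes tested). They lay above for Sox2, Nanog and Pou3f1 (33.3%, background 19.4%). The extraembryonic ectoderm markers summed to 631 and 704 CPM in WT and to 1044 and 665 CPM in KO. The summed level of the visceral endoderm markers was 765 and 2008 CPM in WT and 280.5 and 347 CPM in KO. That of 5 trophoblast giant cell markers (Ctsq and Prl2c2 at 0 in every library) was 158 and 265 CPM in WT and 1128 and 591 CPM in KO. Hand1 made up most of the WT sums, at 151 and 262 CPM, and had 519 and 469 CPM in KO. Prl3d1 had 0 and 0.69 CPM in WT and 322 and 46.5 CPM in KO. Plac1 had 6.78 and 2.14 CPM in WT and 287 and 75.9 CPM in KO. The 7 maternal decidua markers summed to 15.2 and 23.3 CPM in WT and to 2.79 and 2.58 CPM in KO. Of the WT sums, Dcn alone held 8.49 and 15.1 CPM. The 4 decidua markers tested, Dcn, Hoxa10, Col1a2 and Pgr, were lower in KO. Esr1, Hand2 and Prl8a2, not tested, had 0 counts in WT and at most 1.26 CPM in KO. The 6 blood and immune markers summed to at most 2.94 CPM, with Hbb-bs, Hbb-bt and Lyz2 at 0 in every library. In whole embryos, fewer cells of a type and less RNA per cell cannot be told apart, and the part of cell makeup in the differences given here was not tested.

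Initiation starts when eIF2, loaded with GTP and initiator tRNA, joins the small ribosomal subunit together with eIF1, eIF1A, eIF3 and eIF5. The eIF4 factors bring this complex to the capped end of the message, from which it scans to the start codon, and eIF5B then joins the large subunit. In elongation, eEF1A delivers aminoacyl-tRNA and eEF2 moves the ribosome by one codon. Several steps meet m6A in the literature: eIF3 has been described to bind methylated leader sequences, and the m6A reader YTHDF1 to work with eIF3.

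Several factors are encoded by close gene copies, and these set how well short reads can assign a count to one gene. The windows below are coding sequence, 5′ to 3′, from the GENCODE M21 transcripts on mm10, and are shown because each spans the catalytic or modified site that the copies share. In the first pair, capitals mark codon 50, the lysine that is converted to hypusine, the modification eIF5A needs for its function at the ribosome. Codons 41 to 60 are printed.
Eif5a: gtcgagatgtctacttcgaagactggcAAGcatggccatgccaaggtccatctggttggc
Eif5a2: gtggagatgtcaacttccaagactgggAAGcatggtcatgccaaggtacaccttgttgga
These windows differ at 9 of 60 bases, and the aligned coding sequences were 73.2% identical (462 bases), with a longest identical run of 14 bases. In the RNA helicase eIF4A, capitals mark the 4 codons of the DEAD box.
Eif4a1: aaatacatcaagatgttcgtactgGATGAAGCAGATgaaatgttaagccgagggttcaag
Eif4a2: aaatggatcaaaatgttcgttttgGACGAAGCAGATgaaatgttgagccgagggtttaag
They differ at 8 of 60 bases, with 78.5% identity over 1218 aligned coding bases and a longest identical run of 20 bases. In eEF1A, capitals mark the codons of the first GTP-binding loop.
Eef1a1: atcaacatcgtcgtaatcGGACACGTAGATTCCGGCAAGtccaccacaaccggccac
Eef1a2: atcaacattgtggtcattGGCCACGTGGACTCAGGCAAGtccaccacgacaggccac
They differ at 10 of 57 bases, with 80.7% identity over 1387 aligned coding bases and a longest identical run of 23 bases. The genes for eIF1A, Eif1a and Eif1ax, were the closest pair compared (85.5% of 435 coding bases identical, longest run 28 bases). A read of 150 bases from aligned coding sequence therefore spans differences between the members of each of these pairs. Processed pseudogenes, which can be nearly identical to their source, were not examined, and levels of genes with such copies are uncertain to that extent.

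Translation factors were abundant and nearly all were detected. Together they took 3.04% and 3.40% of the reads counted in WT. In KO they took 3.13% and 3.38%, within the range of WT. Of the 62 genes, 59 had counts in all 4 libraries and 47 had a mean of at least 100 CPM. Eef1a1 alone held 11.1% and 11.6% of the translation factor reads in WT and 16.1% and 14.7% in KO. The 5 most abundant genes, Eef1a1, Eif5a, Eif4a1, Eef1g and Eif1, together held 33.9% and 41.5% in WT and 39.7% and 46.4% in KO. The filter on low counts kept 59 genes for testing. The 3 left out were Eif4e1b, an eIF4E gene of oocytes, with 0 counts in all libraries, Eef1a2, the eEF1A copy of muscle and neurons, and Eif4ebp3, a 4E-BP gene. Eef1a2 had 0 counts in each WT library, against 1 and 16 in KO. Eif4ebp3 was counted once and 3 times in WT, against 0 in each KO library. For Eif4e1b a count of 0 allows up to 0.177 and 0.160 CPM in the WT libraries and 0.142 and 0.108 CPM in the KO libraries (3 counts, counting error only).

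**Figure D1:**
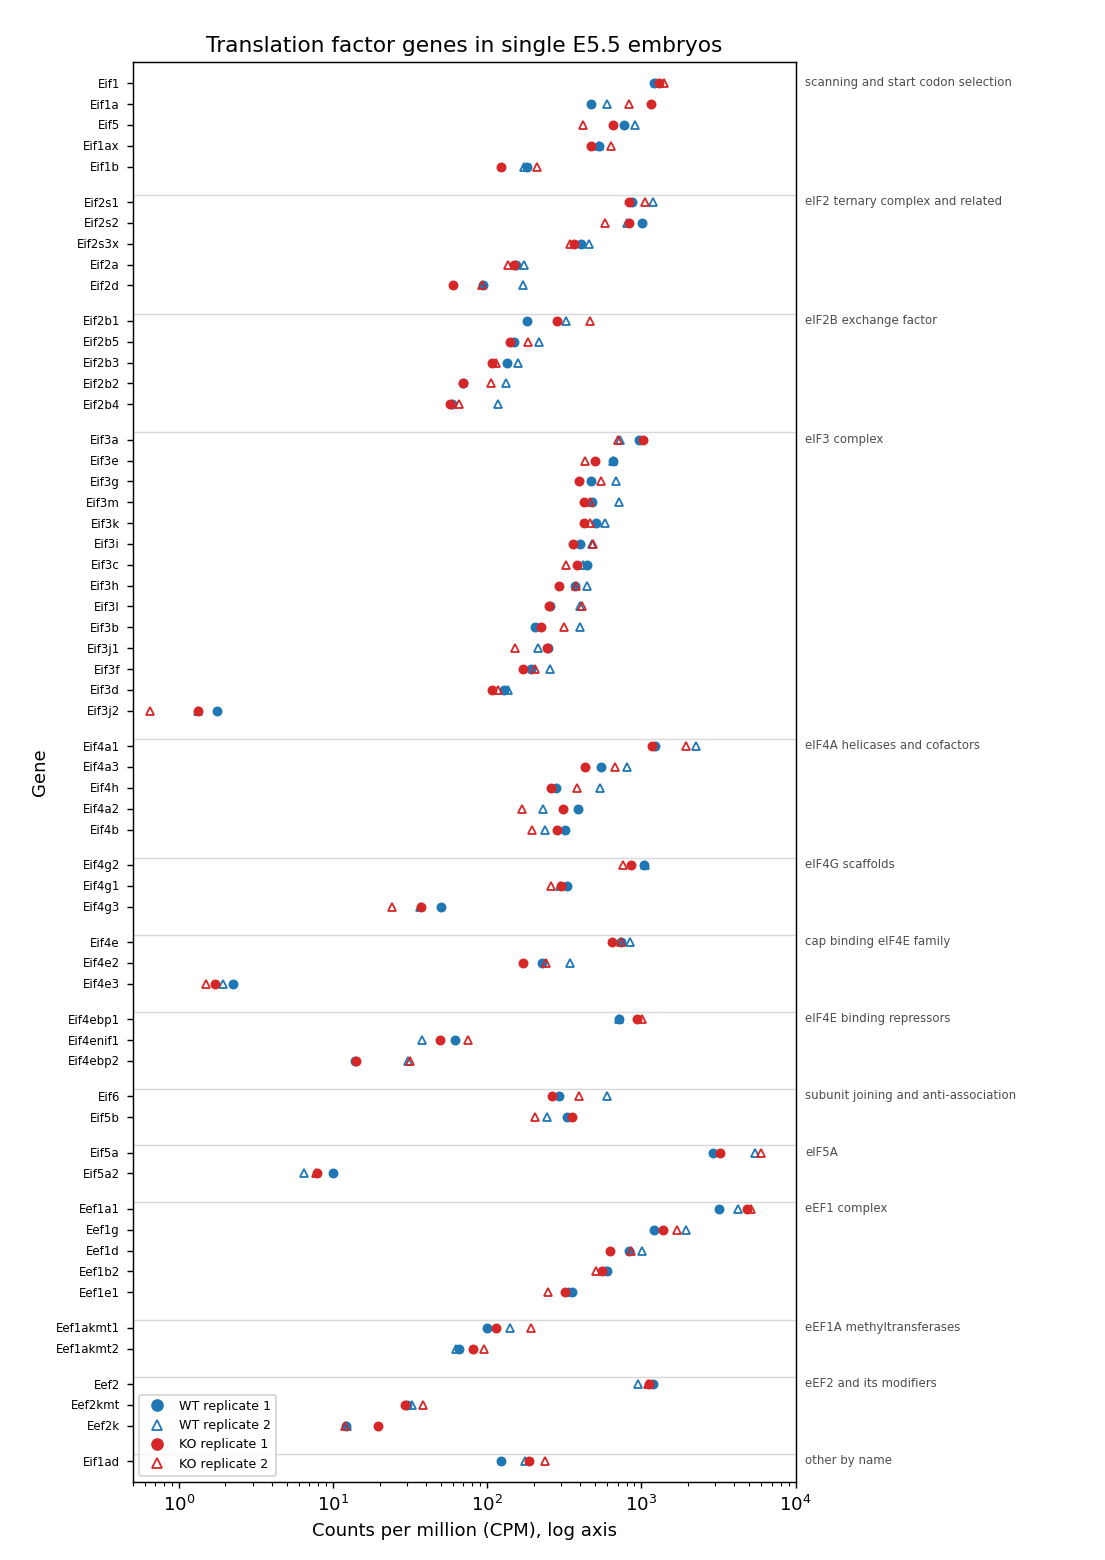
Level of each translation factor gene in each embryo, as CPM on a log axis, for the 58 genes with a mean above 1 CPM, grouped by role. Circles are replicate 1 and triangles replicate 2, blue for WT and red for KO. For most genes the 4 points overlap between groups, and Eif1a has both red points above both blue ones.

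No translation factor gene passed the test between KO and WT. By edgeR's quasi-likelihood test, with Benjamini-Hochberg adjustment over 15563 genes and a threshold of 0.05, 0 of 59 were called, against a background of 0.0% of all genes tested. At an unadjusted p under 0.05 there was 1 of 59 (1.69%), where 7.82% of all genes tested lay under that value (4.74% higher and 3.08% lower in KO). DESeq2 also called 0 translation factor genes, while it called 1.65% of the genes to which it gave an adjusted p. The fitted log2 fold changes, KO over WT, ran from -0.80 to 0.89, and none exceeded 1 in size. Of all genes tested, 21.1% did, and of the 2128 genes with a mean of at least 100 CPM, 3.62%. The median size of the log2 fold change was 0.29 for translation factors, 0.25 for those 2128 genes and 0.43 for all genes tested. Their median standard error (SE) was 0.32.

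The signs leaned to lower values in KO. Of 59 genes, 42 had a negative log2 fold change (71.2%), against 52.3% of all genes tested and 58.8% of the genes with at least 100 CPM. The median was -0.20 for translation factors, -0.03 for all genes tested and -0.07 for the genes with at least 100 CPM. Both KO embryos lay below both WT embryos for 15 genes (25.4%, background 18.8%) and above them for 6 genes (10.2%, background 19.4%). Among genes with at least 100 CPM, 27.7% of translation factors lay below (background 19.5%) and 10.6% above (background 15.8%). The median depended on single embryos. Without KO replicate 1 it was -0.03, with 32 of 60 genes negative and a median of -0.03 over all genes. Without WT replicate 2 it was -0.09, with 33 of 60 negative and a median of 0.02 over all genes. Without WT replicate 1 it was -0.25, with 40 of 60 negative and 0.07 over all genes, and without KO replicate 2 it was -0.23, with 44 of 59 negative and -0.03 over all genes.

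**Figure D2:**
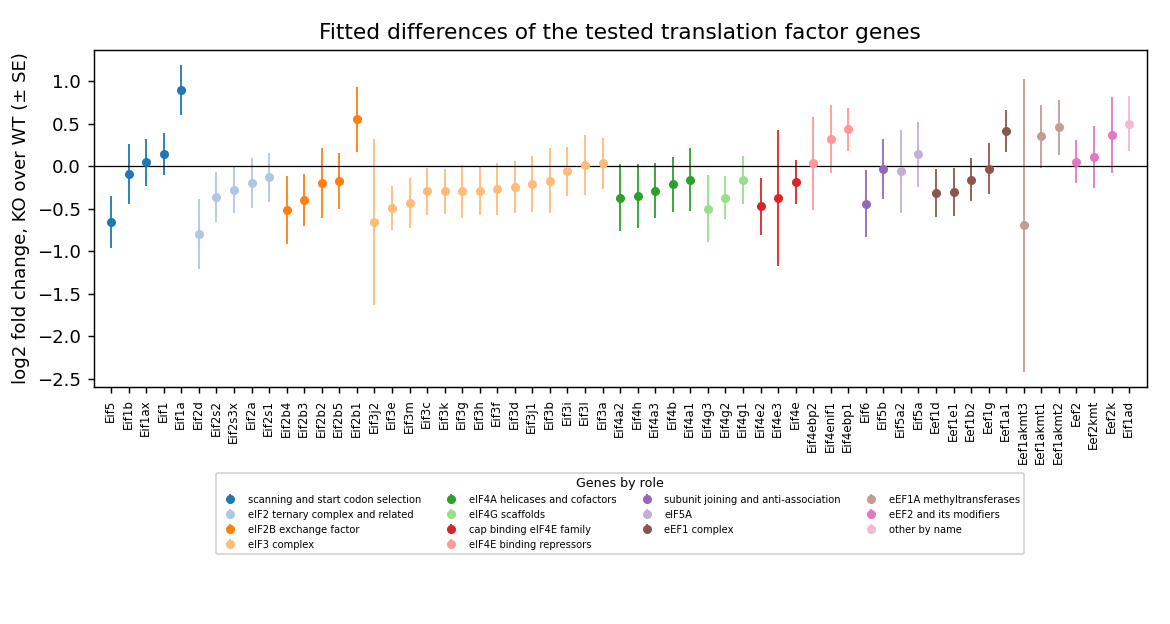
Fitted log2 fold change, KO over WT, of the 59 tested translation factor genes, ordered by role and then by value. Points are edgeR estimates and bars 1 SE on each side. The values lie between -0.80 and 0.89, and the bars of most genes reach or cross 0.

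Among the factors for scanning and start codon choice, Eif1a had the smallest p of all translation factors. Eif1a (ENSMUSG00000057561, chromosome 18, 46597701 to 46616456 on mm10) encodes eIF1A, which holds the small subunit open for scanning. It had 468.5 and 599.6 CPM in WT and 1157 and 828 CPM in KO. Both KO embryos were above both WT embryos, and the KO embryos differed more from each other than the WT embryos did. The log2 fold change was 0.89 (SE 0.29, 1.86-fold, unadjusted p = 0.0153, edgeR adjusted p = 0.51, DESeq2 adjusted p = 0.292). With each library left out in turn it ran from 0.71 to 1.12, and its adjusted p ran from 0.142 to 1 over the 10 alternatives. Eif1ax on the X chromosome encodes a nearly identical protein, with 98.6% of 144 aligned codons giving the same residue. It had 531 and 533 CPM in WT and 470.0 and 630.2 CPM in KO (log2 fold change 0.05, SE 0.28). Per kilobase of principal transcript, Eif1a stood at 1.59 and 2.03 times Eif1ax in WT and at 4.45 and 2.37 times in KO, without overlap between the groups.

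Eif5, the factor that makes eIF2 hydrolyse its GTP at the start codon, went the other way. It had 775 and 911 CPM in WT and 653 and 417 CPM in KO, with both KO embryos lower. Its log2 fold change was -0.66 (SE 0.30, unadjusted p = 0.0624, edgeR adjusted p = 0.672), and it ran from -0.94 to -0.36 with 1 library left out. Eif1, which guards against wrong start codons, had 1208 and 1239 CPM in WT and 1307 and 1392 CPM in KO, without overlap (0.14, SE 0.24). Its copy Eif1b had 182 and 174 CPM in WT and 122 and 211 CPM in KO, a range in KO that enclosed both WT values. Eif1ad, whose protein has an eIF1A-like domain, had 124 and 176 CPM in WT and 186 and 238 CPM in KO (0.50, SE 0.33). Its exons overlap those of Banf1 on the opposite strand over 428 bases, and the counts cannot be assigned to a strand.

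The genes of the eIF2 complex had slightly lower fitted values in KO. The alpha subunit gene Eif2s1, whose protein is the target of the stress kinases, had 867 and 1193 CPM in WT and 826 and 1053 CPM in KO. The beta subunit gene Eif2s2 had 1009 and 803 CPM in WT and 832 and 577 CPM in KO. These ranges overlapped between groups. The gamma subunit gene Eif2s3x, for the GTP-binding subunit, had 406 and 453 CPM in WT and 364 and 342 CPM in KO, without overlap. The 3 log2 fold changes were -0.13 (SE 0.28), -0.36 (SE 0.29) and -0.28 (SE 0.27). Eif2d, which can place initiator tRNA without GTP and acts in recycling, had the lowest fitted value of all translation factors. It had 93.2 and 172 CPM in WT and 59.6 and 93.0 CPM in KO, so the higher KO embryo was just below the lower WT embryo (-0.80, SE 0.41, unadjusted p = 0.0876, edgeR adjusted p = 0.731). Without single libraries its log2 fold change ran from -1.15 to -0.28. Eif2a, an alternative carrier of initiator tRNA that is not a subunit of eIF2, differed by -0.20 (SE 0.30).

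In eIF2B, which recharges eIF2 with GTP, 4 of 5 subunit genes had negative values (80.0%, background 52.3%) and 1 a positive one. Eif2b1, the alpha subunit gene, had 182 and 326 CPM in WT and 282 and 460.4 CPM in KO, so that the groups overlapped (0.55, SE 0.38). Eif2b3 had 134 and 158 CPM in WT and 108 and 113 CPM in KO (-0.40, SE 0.31). Eif2b2, Eif2b4 and Eif2b5 lay between -0.52 and -0.18. For Eif2b1, Eif2b2 and Eif2b4 the WT embryos differed from each other by 0.85 to 0.98 on the log2 scale, more than the groups did.

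The eIF3 complex, the largest initiation factor and the scaffold on the small subunit, had 14 genes in the table and all were tested. Of these 12 had negative (85.7%, background 52.3%) and 2 positive log2 fold changes, with a median of -0.28, and 0 passed. Both KO embryos were below both WT embryos for 6 of the 14 (42.9%, background 18.8%), and above for 0 (background 19.4%). The median was -0.15 without WT replicate 2 and -0.13 without KO replicate 1. Eif3e had 655 and 649 CPM in WT and 497 and 428 CPM in KO (-0.49, SE 0.26, unadjusted p = 0.0952, edgeR adjusted p = 0.746). The WT embryos nearly coincided, and without single libraries the value ran from -0.52 to -0.38, the narrowest range among the eIF3 genes. Eif3m had 477 and 716 CPM in WT and 421 and 462 CPM in KO (-0.43, SE 0.30). Eif3k had 509 and 577 CPM in WT and 425 and 460.3 CPM in KO (-0.30, SE 0.26). In both genes each KO embryo was below each WT embryo. Separation without overlap was also seen for Eif3c (446 and 420.4 CPM in WT, 383 and 322 CPM in KO). The same held for Eif3d, the subunit that can bind a cap (129 and 137 CPM in WT, 107 and 118 CPM in KO), and for Eif3j2, at 1.77 CPM or less in each embryo. For Eif3j2 it rested on 18 to 30 counts per library, with 1.336 CPM in WT replicate 2 against 1.322 CPM in KO replicate 1. Exons of Eif3d overlap a gene on the opposite strand over 2151 bases, so part of its count may come from that gene.

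The other eIF3 genes overlapped between groups. The core subunit gene Eif3a had 964 and 723 CPM in WT and 1021 and 706 CPM in KO (0.03, SE 0.30). Eif3b, with the RNA recognition motif of the core, had 205 and 400.2 CPM in WT and 222 and 316 CPM in KO. Eif3l had 256 and 399 CPM in WT and 252 and 409 CPM in KO. In these genes the larger difference was between embryos of a group. Eif3f had 193 and 256 CPM in WT and 169 and 204 CPM in KO, and Eif3g 474 and 679 CPM in WT and 391 and 549 CPM in KO. Eif3h, whose protein has been described to contact METTL3 bound to messages, had 373 and 444 CPM in WT and 294 and 376 CPM in KO (-0.29, SE 0.29). Eif3i had 402 and 481 CPM in WT and 362 and 483 CPM in KO, and Eif3j1 had 247 and 213 CPM in WT and 245 and 152 CPM in KO. Although the subunits work in one complex, their messages stood at unequal levels. Without Eif3j2, the mean over the 4 embryos ran from 39.6 CPM per kilobase for Eif3j1 to 637 for Eif3k, a 16.1-fold range. Part of this range comes from length, as the principal transcripts were 5413 bases for Eif3j1 and 774 bases for Eif3k. In CPM, Eif3j1 averaged 230 in WT and 199 in KO, and Eif3k 543 in WT and 443 in KO. Exons of Eif3j1 also overlap a gene on the opposite strand over 1107 bases. Eif3a, Eif3b and Eif3c, of the functional core, stood at 167, 97.0 and 116 CPM per kilobase.

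In the cap-binding eIF4F group, all 11 tested genes for eIF4A and its cofactors, eIF4G and eIF4E had negative fitted values, and 0 passed. Negative values made up 52.3% of all genes tested and 58.8% of those with at least 100 CPM. Without WT replicate 2 the median of the eIF4A and cofactor genes was 0.02, and without KO replicate 1 it was -0.03. Each of these 5 genes changed sign without a single library, while the eIF4G and eIF4E genes kept theirs. Eif4a1, the main helicase gene, had 1217 and 2261 CPM in WT and 1167 and 1945 CPM in KO. Its copy Eif4a2 had 385 and 231 CPM in WT and 309 and 167 CPM in KO. Eif4a3, the helicase of the exon junction complex, had 549.9 and 803 CPM in WT and 433 and 676 CPM in KO. Each of these groups overlapped. The log2 fold changes were -0.16 (SE 0.37), -0.37 (SE 0.39) and -0.29 (SE 0.33). The helicase cofactor genes Eif4b and Eif4h differed by -0.22 (SE 0.32) and -0.35 (SE 0.38).

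Among the scaffolds, Eif4g2 separated the groups. It encodes the eIF4G relative (DAP5) that lacks the eIF4E site and serves cap-independent and upstream-frame initiation. It had 1040.1 and 1056 CPM in WT and 858 and 762 CPM in KO (-0.37, SE 0.25, unadjusted p = 0.174, edgeR adjusted p = 0.811). Without single libraries it ran from -0.38 to -0.28. Eif4g1, the main scaffold, had 330.1 and 296 CPM in WT and 299.7 and 258 CPM in KO, and Eif4g3 had 49.9 and 36.8 CPM in WT and 37.1 and 24.1 CPM in KO. Per kilobase, Eif4g2 stood at 2.22 and 2.52 times Eif4g1 in WT and at 2.02 and 2.08 times in KO. The cap-binding protein gene Eif4e had 738 and 848 CPM in WT and 648 and 742 CPM in KO (-0.19, SE 0.26). Eif4e2, whose protein 4EHP binds caps without recruiting eIF4G, had 227 and 345 CPM in WT and 171 and 242 CPM in KO (-0.47, SE 0.34). Eif4e3 had at most 2.24 CPM in any embryo.

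The 3 tested genes for repressors of eIF4E had positive fitted values, with a median of 0.32, which was -0.001 without KO replicate 2. Eif4ebp3, not tested, had 1 and 3 counts in WT and 0 in each KO library. Eif4ebp1 encodes 4E-BP1, which holds eIF4E away from eIF4G until MTOR phosphorylates it. Eif4ebp1 had 717 CPM in each WT embryo and 929 and 1005 CPM in KO, without overlap (0.43, SE 0.25, unadjusted p = 0.122, edgeR adjusted p = 0.766). Without single libraries it ran from 0.38 to 0.57. Its relative Eif4ebp2 had 13.9 and 30.7 CPM in WT and 14.2 and 31.4 CPM in KO (0.03, SE 0.54), so each group held a low and a high embryo. Eif4enif1, the eIF4E transporter that takes messages to silencing bodies, differed by 0.32 (SE 0.40) with overlapping groups. Per kilobase, Eif4ebp1 stood at 149 and 67.8 times Eif4ebp2 in WT and at 190 and 92.7 times in KO (plot of related genes per length).

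**Figure D3:**
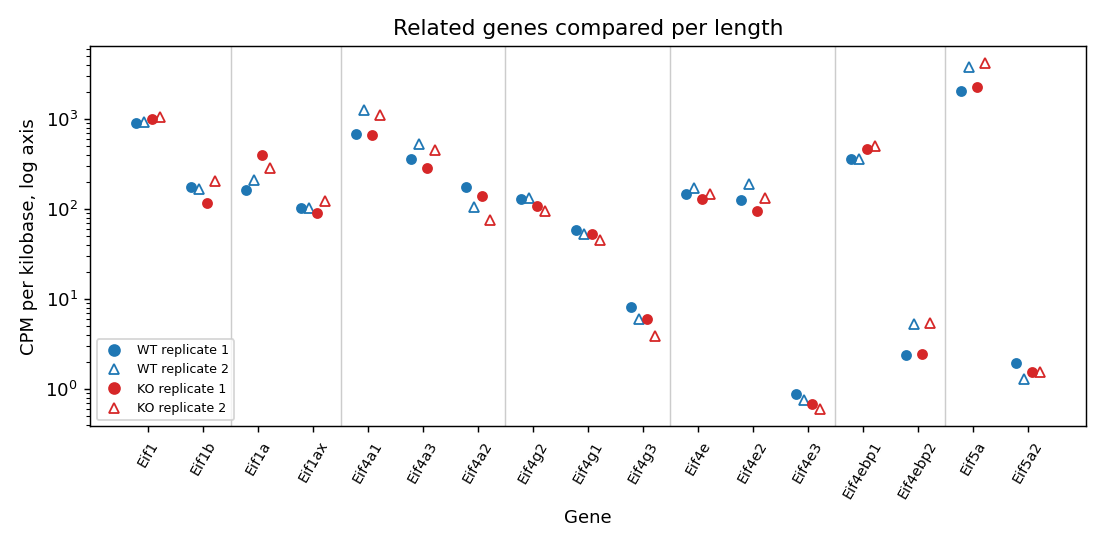
Levels of related translation factor genes, as CPM per kilobase of principal transcript on a log axis, with 1 point per embryo (circles replicate 1, triangles replicate 2, blue WT, red KO). Vertical lines separate families. Eif4a1 and Eif4a2 lie far apart in replicate 2 of both groups and closer together in replicate 1. On this scale, which depends on the transcript length used, Eif5a stands more than 1000 times above Eif5a2 in each embryo.

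Of the late factors, Eif5b, the GTPase that joins the large subunit, had 331 and 243 CPM in WT and 356 and 204 CPM in KO (-0.04, SE 0.35). Eif6, which keeps the large subunit from joining too early, had 293 and 594 CPM in WT and 262 and 392 CPM in KO (-0.44, SE 0.39). Both overlapped between groups. Eif5a, which resolves stalled elongation and whose hypusine codon is printed above, had 2931 and 5467 CPM in WT and 3242 and 5992 CPM in KO. Its log2 fold change was 0.14 (SE 0.38). Eif5a2 had 9.90 and 6.47 CPM in WT and 7.88 and 7.79 CPM in KO (-0.06, SE 0.49). Per kilobase, Eif5a stood 1035 and 2958 times above Eif5a2 in WT and 1438 and 2692 times above it in KO. The principal transcripts used were 1437 bases for Eif5a and 5027 bases for Eif5a2, so these ratios are larger than those of CPM.

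For elongation, Eef1a1 (ENSMUSG00000037742, chromosome 9, 78478449 to 78489151 on mm10) had 3191 and 4253 CPM in WT and 4809.6 and 5117 CPM in KO. Both KO embryos were above both WT embryos (0.42, SE 0.25, unadjusted p = 0.13, edgeR adjusted p = 0.769). With 1 library left out the value ran from 0.24 to 0.65. The exchange factor genes that recharge eEF1A did not share this sign. Eef1b2 differed by -0.16 (SE 0.26), Eef1d by -0.31 (SE 0.28) and Eef1g by -0.03 (SE 0.30). With library totals in place of TMM scaling, Eef1g stood at 0.01. Eef1e1, which works in the multisynthetase complex, differed by -0.30 (SE 0.29), with both KO embryos lower. Of the methyltransferase genes for eEF1A, Eef1akmt2 had 65.6 and 62.6 CPM in WT and 81.1 and 94.7 CPM in KO (0.46, SE 0.32). Eef1akmt1 differed by 0.35 (SE 0.37), and Eef1akmt3 had at most 1.002 CPM.

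Eef2, the translocase gene, was among the flattest. Its codon 715, the histidine that is converted to diphthamide, is in capitals in codons 707 to 725.
Eef2: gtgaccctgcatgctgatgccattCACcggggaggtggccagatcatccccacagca
It had 1191 and 948 CPM in WT and 1114 and 1105 CPM in KO (0.05, SE 0.26), so that both KO values lay between the WT values. Eef2k, the kinase that inactivates eEF2, had 12.2 and 12.3 CPM in WT and 19.6 and 12.02 CPM in KO (0.37, SE 0.45). Eef2kmt, a lysine methyltransferase of eEF2, differed by 0.10 (SE 0.37). The messages of 10 members, among them Eef1a1, Eef2 and Eif3e, are known as TOP messages, whose start of C and T letters puts them under MTOR control. These had 3 positive and 7 negative values with a median of -0.19, close to the median of all translation factors.

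Embryos of one group differed in a pattern shared by both groups. Among the 59 genes, the log2 difference between the WT embryos had a median size of 0.40, that between the KO embryos 0.42, and that between group means 0.29. A difference between means of 2 embryos is expected to be smaller than one between single embryos, and the same medians were 0.403, 0.425 and 0.293 over protein-coding genes with at least 10 CPM. The group difference exceeded both within-group differences for 17 genes (28.8%), against 27.1% of the protein-coding genes tested. With at least 10 CPM these shares were 29.1% and 24.6%, and with at least 100 CPM 31.9% and 24.7%. In 32 of the 59 genes replicate 2 was above replicate 1 in both groups, and in 17 it was below in both. The remaining 10 genes differed in sign between groups. Across the 59 genes, Pearson's r between the WT difference and the KO difference was 0.79, and it was 0.71 over the 55 genes with a mean of at least 10 CPM. For all protein-coding genes tested the same r was 0.21, and it was 0.46 for those with at least 10 CPM. Over the genes with at least 100 CPM it was 0.79 for 47 translation factors and 0.56 for 2110 protein-coding genes. All genes share the same 4 libraries, so these are descriptions across genes. Nothing in the labels ties embryos of equal number to one another. The replicate 2 libraries had counts for fewer genes (19603 in WT, 18346 in KO) than the replicate 1 libraries (21488 in WT, 21250 in KO). In each group the replicate 2 library nevertheless held more counts. The part of this difference between libraries in the shared pattern was not tested.

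The genes at the ends of this pattern were Eif4ebp2, Eif5a, Eif4a1 and Eif6 on one side and Eif5b, Eif3j2, Eif4a2 and Eef1akmt3 on the other. Per kilobase, Eif4a1 stood at 3.93 and 12.2 times Eif4a2 in WT and at 4.69 and 14.46 times in KO. This ratio was further apart between the embryos of each genotype than between genotypes, and its ranges overlapped between genotypes. Base composition moved with the pattern. Across the 59 genes, the mean replicate difference had a Pearson r of 0.43 with the GC content of the principal transcript and of -0.38 with its log2 length. Among the 19 genes of lowest GC (38.8% to 44.5%), replicate 2 was higher in both groups for 4 and lower in both for 9. Among the 19 of highest GC (52.4% to 57.9%) it was higher in both for 16 and lower in both for 2. The same r with GC was 0.30 over the protein-coding genes tested, 0.43 over those with at least 10 CPM and 0.45 over those with at least 100 CPM. At these levels it was 0.51 for 55 translation factors and 0.54 for 47. The log2 fold change between KO and WT had an r of -0.03 with GC over the 59 genes. Over protein-coding genes this r was 0.15 for those tested, 0.19 with at least 10 CPM and 0.26 with at least 100 CPM. For translation factors at these 2 levels it was -0.08 and -0.03. The part of GC content or transcript length in the replicate differences was not tested.

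**Figure D4:**
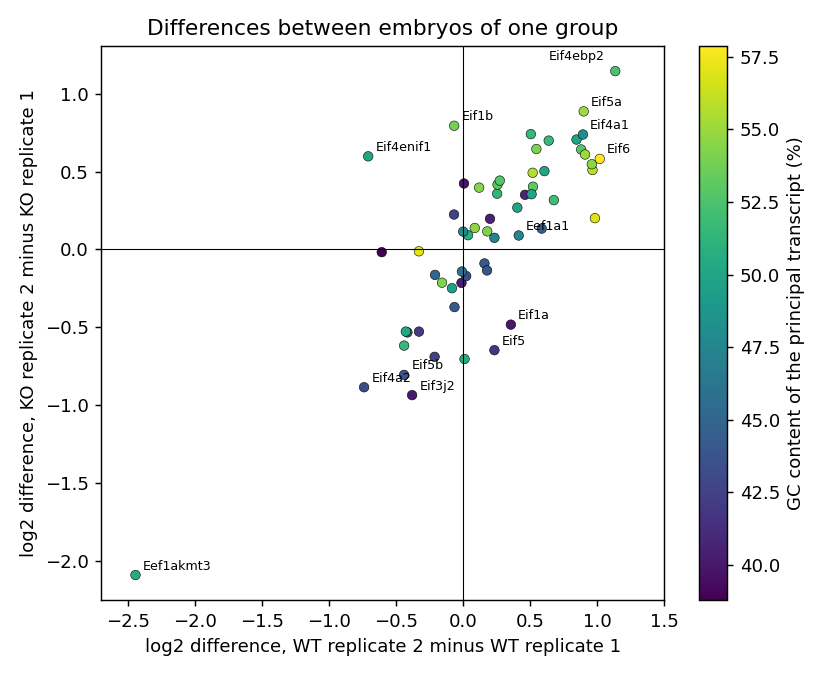
Each point is 1 of the 59 tested translation factor genes. The horizontal axis is the log2 difference of WT replicate 2 minus WT replicate 1, the vertical axis the same for KO, and the colour the GC content of the principal transcript. Points run along the diagonal, with GC-rich genes mostly at the upper right, while Eif1a and Eif5 lie at the lower right.

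Because m6A is written mostly in a consensus whose commonest form is GGACT, its letters were counted in the sense strand of each principal transcript. Of the 59 genes, 54 held at least 1 GGACT (91.5%), as did 91.7% of the protein-coding genes tested. The median density was 1.17 per kilobase in translation factors and 1.06 in protein-coding genes. Eef1a1, Eef1d, Eif2s2, Eif3g and Eif3k held none, Eif1a held 3 and Eif5b held 12. Across the 59 genes the log2 fold change had a Pearson r of 0.08 with this density. For translation factors it was 0.174 with at least 10 CPM and 0.135 with at least 100 CPM. Over protein-coding genes this r was 0.08 for those tested, 0.129 with at least 10 CPM and 0.171 with at least 100 CPM. A match of these letters does not show that a site is methylated.

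Other genes of the translation apparatus were described from lists with the same test, and 0 genes of these lists passed. For termination and recycling, 9 of 9 genes were tested, 3 with positive and 6 with negative values (median -0.23). Pelo, which rescues stalled ribosomes, had 17.6 and 18.0 CPM in WT and 35.2 and 35.5 CPM in KO (0.99, SE 0.37, unadjusted p = 0.0264, edgeR adjusted p = 0.555). For Pelo the embryos of each group nearly coincided and the groups did not overlap. It was the 1 gene of the 9 with an unadjusted p under 0.05 (11.1%, against 7.82% of all genes tested). The poly(A), synthetase, MTOR and MNK, eIF2 kinase, and hypusine and diphthamide lists had 0 such genes. Of 13 poly(A)-binding and cap-proximal regulators, 2 were positive and 11 negative (84.6%, background 52.3%, median -0.12). Paip2, an inhibitor of poly(A)-binding protein, differed by -0.43 (SE 0.27).

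The cytosolic aminoacyl-tRNA synthetases, which charge tRNA, had 19 genes tested, of which 18 were negative (94.7%, background 52.3%), with a median of -0.29. Both KO embryos were below both WT embryos for 8 of them (42.1%, background 18.8%). Tars, the threonyl-tRNA synthetase gene, had 304 and 295 CPM in WT and 189.8 and 205 CPM in KO (-0.60, SE 0.28, unadjusted p = 0.0623, edgeR adjusted p = 0.671). Of 12 MTOR and MNK signalling genes, 8 were positive (median 0.12), and Mlst8, an MTOR complex subunit, differed by -1.27 (SE 0.66) at no more than 9.14 CPM. The 6 genes of eIF2 kinases and phosphatase had a median of 0.10, with 4 positive. Ppp1r15a, the stress-induced subunit of the eIF2 phosphatase, had 18.9 and 25.2 CPM in WT and 35.8 and 28.1 CPM in KO (0.54, SE 0.39). Hypusine and diphthamide synthesis genes had 5 positive of 8 (median 0.21), and Dph3 differed by 0.56 (SE 0.32). Of 15 genes of the m6A machinery, 8 were positive and 7 negative (median 0.02), and 0 passed the adjusted threshold. An unadjusted p under 0.05 was found for 5 of the 15 (33.3%, against 7.82% of all genes tested), which are named after their values were seen. These were Mettl14, Wtap (-1.33, SE 0.37), Ythdf2 (1.18, SE 0.30), Rbm15 (1.43, SE 0.40) and Ythdc1 (1.13, SE 0.39), each without overlap between the groups. Mettl14 adds nothing to this share, because its level in the same cDNA was used to call the genotype. Of the 15 genes, both KO embryos lay above both WT embryos for 5 (33.3%, background 19.4%). They lay below for 3 (20.0%, background 18.8%), Mettl14 among them.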

How the data were processed

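Per the labels' protocols, polyadenylated RNA of each embryo was amplified by Smart-Seq v4, and both ends of fragments were read over 150 bases. The authors deposited whole-number read counts per gene without normalisation, 1 column per embryo. The submitters' processing notes list TopHat and Cufflinks, without versions or roles, and mm10 as build. For the counting program, the strand setting and the annotation, nothing is stated in the labels. The amplification leaves strand unmarked, and exons of 15 translation factor genes overlap a gene on the opposite strand. Of 47885 rows, 46574 were found in GENCODE M21, from which symbols, coordinates and transcripts were taken.

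CPM were computed here from TMM-scaled library sizes. The comparison used edgeR 4.0.16 (R 4.3.3) on genes kept by filterByExpr (count of 10 or more, total of 15 or more), with its robust quasi-likelihood F test and Benjamini-Hochberg adjustment over 15563 genes. The SE is |log2 fold change| over the root of F. The script was tested on simulated data. Levels per kilobase used the length of the principal transcript and depend on that choice. Which transcripts of a gene were present was not determined. Each group is 2 separately sequenced embryos, so p-values rest on the spread among 4 embryos. Alternatives were DESeq2 1.42.0, RLE scaling, library totals, no filter, at least 50 counts in 2 libraries, a replicate block and leaving out each library.

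By a written rule, values in every embryo are given for the 12 genes of smallest p, close copies, eIF2, eIF3, 4E-BP and eEF2 genes, and fold changes for the gene of smallest p in each list. The GC, length and GGACT descriptions and the 10, 100 and 1 CPM levels were added after values were seen. The genes and lists were chosen with earlier results of these data known.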

Additional observations from a re-analysis of the deposited data

How the results depend on the processing

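No translation factor gene was called in the main test or in any of the 10 alternatives, and the smallest adjusted p among them ran from 0.142 with the replicate block to 0.821 without WT replicate 1. Over all genes the calls numbered 0 in the main test, with RLE scaling, with library totals and with at least 50 counts in 2 libraries. Calls above and below WT numbered 160 and 103 by DESeq2, 157 and 101 without the low-count filter, and 52 and 19 with the replicate block. The cause was not tested. Without single libraries, the calls above WT ran from 14 to 133 and those below from 1 to 209. The samples share only a replicate number, with a correlation of 0.329 between the WT and the KO replicate differences over the genes tested. Under the block 11 translation factor genes (18.6%) had an unadjusted p under 0.05, where 14.2% of all genes did. The median over translation factors ran from -0.25 to -0.0277 without single libraries. Mettl14, by whose level in the same cDNA the embryos were grouped, passed at -2.36 with DESeq2 and with no low-count filter. Without KO replicate 2 its log2 fold change was -2.81. Of the 59 fitted signs, 31 were kept in all 10 alternatives (8 positive, 23 negative) and 28 changed without a single library. Eef1g also changed sign with library totals (0.00695). These ranges without single libraries were Eef1akmt1 (-0.0608 to 0.75), Eef1akmt3 (-2.76 to 1.59), Eef1g (-0.31 to 0.35), Eef2 (-0.0929 to 0.24), Eef2kmt (-0.10 to 0.37), Eif1ax (-0.17 to 0.33), Eif1b (-0.54 to 0.33), Eif2b2 (-0.55 to 0.34), Eif2b4 (-0.91 to 0.0664), Eif2b5 (-0.39 to 0.12), Eif2s1 (-0.32 to 0.13), Eif3a (-0.17 to 0.29), Eif3b (-0.55 to 0.40), Eif3g (-0.55 to 0.0110), Eif3i (-0.28 to 0.21), Eif3j1 (-0.52 to 0.10), Eif3l (-0.37 to 0.40), Eif4a1 (-0.57 to 0.36), Eif4a2 (-0.80 to 0.0467), Eif4a3 (-0.64 to 0.0795), Eif4b (-0.42 to 0.0357), Eif4ebp2 (-0.65 to 0.72), Eif4enif1 (-0.0011 to 0.74), Eif4h (-0.73 to 0.22), Eif5a (-0.37 to 0.66), Eif5a2 (-0.33 to 0.29), Eif5b (-0.41 to 0.32), Eif6 (-0.83 to 0.17).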
